A study of Mus musculus with 10 samples.

Results

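Mast cells store proteases in their granules and carry the high-affinity receptor for IgE on their surface, and 8 genes for these proteins were followed in mouse colon. They were chosen by symbol and are the chymase genes *Mcpt1*, *Mcpt2*, *Mcpt4* and *Cma1*, the carboxypeptidase gene *Cpa3*, the tryptase gene *Tpsb2* and the receptor chain genes *Fcer1a* and *Ms4a2*. Each symbol matched a single row, which gave 8 of the 56691 genes in the table. In mice, mast cells of the mucosa are known for the chymases Mcpt1 and Mcpt2, whereas those of connective tissue hold Mcpt4, Cma1, Cpa3 and tryptases. When antigen links IgE bound to the receptor, kinases and adaptor proteins below it trigger the release of the granules. In the gut, Mcpt1 is known to loosen epithelial junctions during worm infection.

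The study asked how amniotic fluid from early chick embryos (ceAF) alters gene expression in the colon after dextran sulfate sodium (DSS), a polymer that injures the colonic epithelium and causes colitis. RNA was sequenced from colon of 10 male C57/BL6 mice that were 8 weeks old when obtained. The 5 mice of the DSS group drank 3% DSS for 7 days. The 5 mice of the ceAF group drank 3% DSS for the same 7 days and were afterwards gavaged with ceAF at 15 mL/kg over 10 days. All 10 mice had therefore been given DSS, and colon of untreated mice was not analysed here. The stretch of colon and the day of sampling are not given in the sources used here. Mice carry the names of their labels, from DSS-1 and from ceAF-1 up to 5 in each group, and values of single mice are listed in that order. The labels number the libraries but do not otherwise state that each came from a separate animal. Each library is taken here as a separate mouse, and p-values measure only the spread between these samples. Libraries of the same group differed by a chi-square per gene of 14.6 to 148.2, and whether this spread lies between animals was not tested.

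Total counts on genes ran from 16275884 to 19901549 for the DSS mice and from 14676471 to 18811795 for the ceAF mice. At these totals 3 counts, the most that a count of 0 allows, equal 0.151 to 0.204 CPM, the count scaled to the size of the library, a limit that covers counting error only. Levels are given in FPKM, the count divided by exonic length and by the total of the library, so that genes can be compared. The labelled tissue matched its markers, since 0 of 9 colon epithelium markers were at 0 and their most abundant gene, *Car1*, averaged 2778 FPKM. The mast cell genes were rare by comparison. Summed over the 10 mice, *Mcpt1* had 650 counts, *Mcpt2* 379, *Cma1* 236, *Cpa3* 51, *Mcpt4* 37, *Ms4a2* 32, *Tpsb2* 28 and *Fcer1a* 24. Of 23 other mast cell genes, 5 had at most 3 counts in all mice together, among them the tryptase *Tpsab1* with 1, the receptor *Mrgprb2* with 2 and the transcription factor *Gata1* with 3, whereas the transcription factor *Gata2* had 204 and the receptor *Kit* 6209. These examples were named after their values were seen.

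Genes with too few counts were removed before testing, which left 16545 genes and, of the 8, only *Mcpt1* and *Mcpt2*. A gene was called when edgeR's quasi-likelihood test gave an adjusted p under 0.05 and its log2 fold change reached 1 or −1. By this limit, 0 of these 2 genes were called, against 0.0% of all tested genes. At an unadjusted p under 0.05 the count was again 0 of 2, against 6.93% of all tested genes in either direction, 3.67% lower and 3.26% higher in the ceAF group. DESeq2 with the same limits called 0 of the 8, against 0.115% of the genes for which it gave an adjusted p. At an unadjusted p under 0.05, DESeq2 picked 1 of the 8, *Cma1*, against 4.84% of the genes for which it gave a p. The ranges of the groups overlapped for all 8 genes in CPM scaled by TMM, and 1.24% of the tested genes had groups that did not overlap. For bulk colon, a change in the number of mast cells and a change in RNA per cell could not be told apart.

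*Mcpt1* and *Mcpt2* encode the chymases of mucosal mast cells. *Mcpt1* (ENSMUSG00000022227, chromosome 14, 56255428 to 56257841, plus strand, build not given in the sources used here) had 3.98, 5.55, 3.70, 4.21 and 1.32 FPKM in the DSS mice and 1.08, 2.79, 2.94, 10.2 and 2.08 FPKM in the ceAF mice. The groups overlapped widely, with the lowest and the highest level both in the ceAF group, in ceAF-1 and ceAF-4. The mean was 3.75 ± 1.53 FPKM (SD, n = 5) with DSS alone and 3.82 ± 3.64 FPKM after ceAF. The log2 fold change was 0.01 (standard error 0.54), with a 95% interval from −1.18 to 1.20 (edgeR, adjusted p = 0.999). The exact two-sided permutation test on log2 CPM gave p = 0.714. Leaving out ceAF-4 turned the log2 fold change to −0.71, and leaving out DSS-5 turned it to −0.19.

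*Mcpt2* (ENSMUSG00000022226, chromosome 14, 56279498 to 56282099, plus strand) had 2.84, 2.56, 2.14, 1.9 and 1.95 FPKM in the DSS mice and 0.90, 1.45, 1.40, 4.87 and 1.21 FPKM in the ceAF mice. In the ceAF group, 4 mice lay below every DSS mouse and ceAF-4 lay above every DSS mouse. The mean was 2.28 ± 0.408 FPKM (SD, n = 5) with DSS alone and 1.97 ± 1.64 FPKM after ceAF. The log2 fold change was −0.21 (standard error 0.41), with a 95% interval from −1.11 to 0.69 (edgeR, adjusted p = 0.954), and the exact permutation test gave p = 0.286. This value rested on a single mouse. Without ceAF-4 the log2 fold change was −0.82, with an unadjusted p of 0.00494 and an adjusted p of 0.861 in edgeR's quasi-likelihood test. That mouse was singled out after the values were seen.

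**Figure D1:**
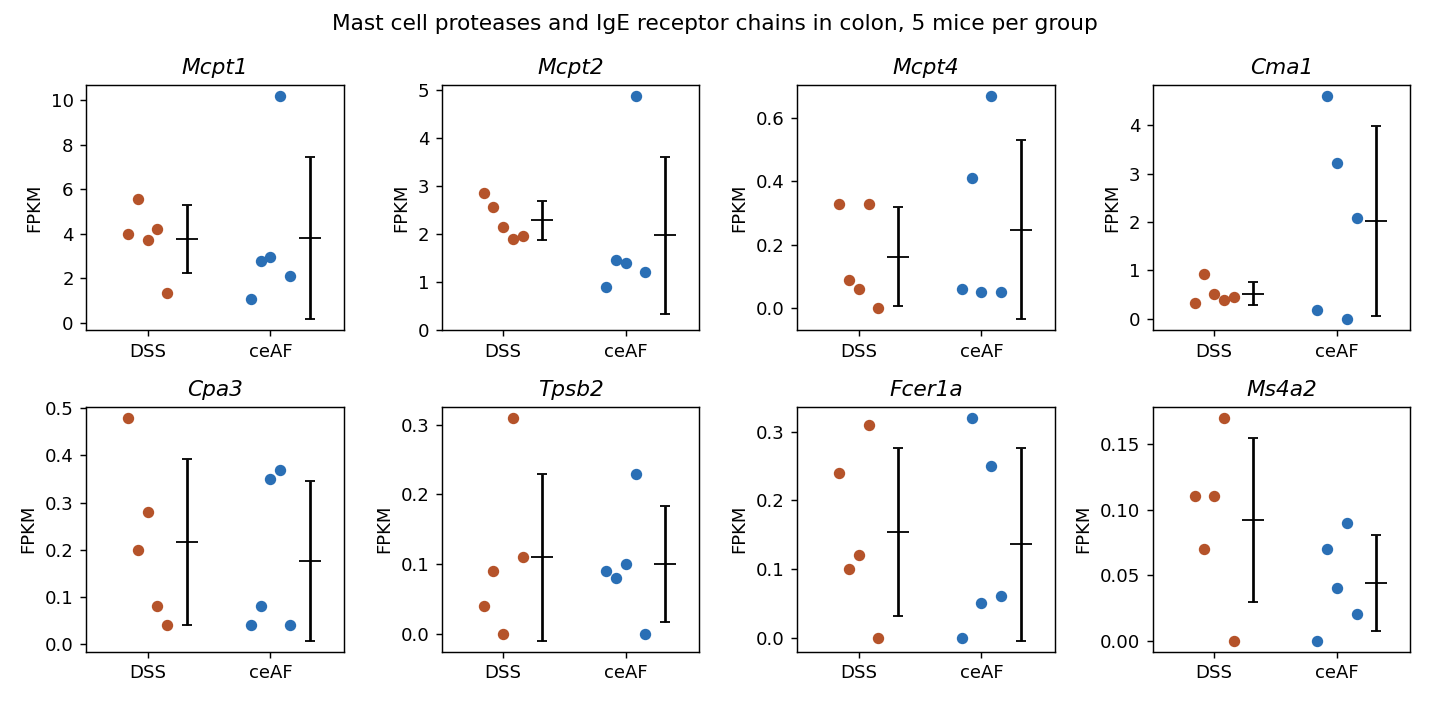
Level in FPKM of the 8 mast cell genes in colon, with a panel and a vertical scale for each gene. Points are single mice in label order, and the bar beside each group is the mean with 1 SD (n = 5); *Mcpt1* and *Mcpt2* share their highest mouse, ceAF-4, at 10.2 and 4.87 FPKM, where *Cma1* is at 0.

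The mucosal chymases varied together over the mice. On log2 CPM, Pearson's r of *Mcpt1* and *Mcpt2* was 0.83 (permutation p = 0.00323) and Spearman's rho was 0.855 (permutation p = 0.00272) over 10 mice. After Benjamini-Hochberg adjustment over 3 pairs the permutation p-values were 0.00969 and 0.00816. The r of deviations from the group means was 0.847. Without ceAF-1 and ceAF-4, the mice farthest from the median of *Mcpt1*, r was 0.55 (permutation p = 0.158). Within the DSS mice r was 0.564 and within the ceAF mice 0.972, each over 5 mice.

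Of the genes ascribed to connective tissue mast cells, *Cma1*, a chymase gene, was the most abundant and had the widest range in FPKM. *Cma1* (ENSMUSG00000022225, chromosome 14, 56178908 to 56182132, minus strand) had 6, 20, 9, 7 and 8 counts in the DSS mice and 3, 78, 66, 0 and 39 counts in the ceAF mice. In FPKM these were 0.33, 0.92, 0.51, 0.39 and 0.45 in the DSS group and 0.19, 4.60, 3.22, 0 and 2.09 in the ceAF group. The ceAF mice lay on both sides of the DSS group, with ceAF-2, ceAF-3 and ceAF-5 above every DSS mouse and ceAF-1 and ceAF-4 below every DSS mouse. The 0 counts in ceAF-4 allow up to 0.187 CPM. Mean levels were 0.520 ± 0.234 FPKM (SD, n = 5) and 2.02 ± 1.97 FPKM, and mean CPM was 3.93 times as high in the ceAF group. The difference of mean log2 CPM was 0.67 (exact permutation p = 0.603), and 0.06 without ceAF-2 or 0.18 without ceAF-3. By the same measure it was 1.08 without ceAF-1 and 1.67 without ceAF-4 (exact permutation p = 0.492 and 0.103). When every gene with a count was kept, edgeR's quasi-likelihood test gave a log2 fold change of 1.96 with a standard error of 0.83 and a 95% interval from 0.20 to 3.74, an unadjusted p of 0.0317 and an adjusted p of 0.69. Left out in turn, ceAF-1 and ceAF-4 gave 2.23 and 2.28 in fits where *Cma1* then passed the filter (edgeR, adjusted p = 0.407 and 0.861). It passed there through DSS-2 and the ceAF mice where it was high, after a ceAF mouse with a low level was removed. These values are therefore no separate support for a higher level.

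*Cma1* and the mucosal chymases did not follow the same mice. Over 10 mice, r of *Cma1* was −0.339 with *Mcpt1* (permutation p = 0.34, adjusted 0.34) and −0.623 with *Mcpt2* (permutation p = 0.0539, adjusted 0.0809), with Spearman's rho of −0.236 (permutation p = 0.514, adjusted 0.514) and −0.406 (permutation p = 0.249, adjusted 0.373). Without ceAF-1 and ceAF-4, r was −0.15 and −0.752 (permutation p = 0.732 and 0.0367, not adjusted). Within the DSS mice alone r was 0.362 and 0.138, and within the ceAF mice −0.452 and −0.644, each over 5 mice. These pairs were chosen after the values were seen. *Hox* genes, whose expression is set by position along the gut, differed between the mice as well. *Hoxb13*, a gene of the distal colon and rectum, had 35.9, 43.4, 43.3, 48.2 and 94.9 FPKM in the DSS mice and 2.50, 96.1, 65.6, 4.83 and 88.95 FPKM in the ceAF mice. It was lowest in ceAF-1 and ceAF-4, the same mice in which *Cma1* was lowest, whereas DSS-5 had a high *Hoxb13* level and 8 counts of *Cma1*. *Hoxa13*, *Hoxd10* and *Hoxb6* did not set the same 2 mice apart. *Hoxa13*, also a gene of the distal gut, was low in ceAF-1, at 1.16 FPKM, and high in ceAF-4, at 38.45 FPKM, with 17.7 to 40.2 FPKM in the other mice. *Hoxd10* was lowest in ceAF-4, at 0.03 FPKM, and was 2.1 FPKM in ceAF-1, within the range of the DSS mice. *Hoxb6*, a gene of the proximal colon, ranged from 0.43 FPKM in ceAF-2 to 41.4 FPKM in ceAF-1, and was 1.59 FPKM in ceAF-4. The *Hox* genes were chosen after their values were seen, and their part in the levels of *Cma1* was not tested.

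**Figure D2:**
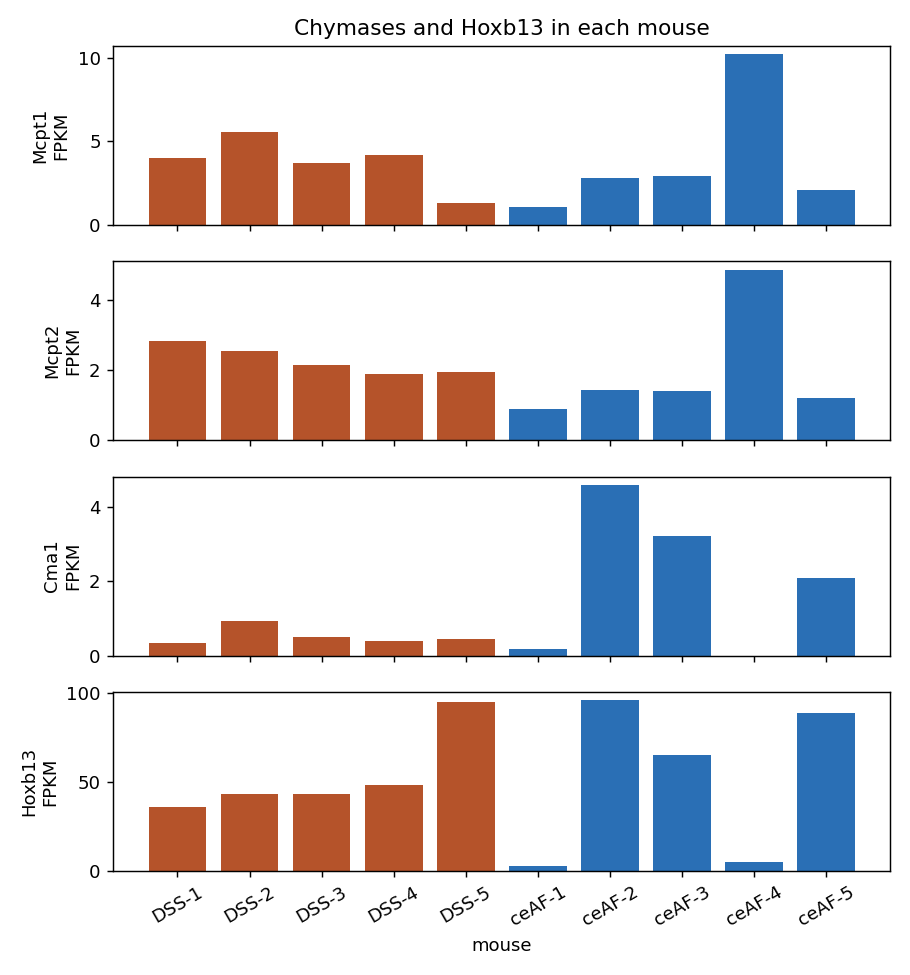
Level in FPKM of *Mcpt1*, *Mcpt2*, *Cma1* and *Hoxb13* in each of the 10 mice, DSS mice in brown and ceAF mice in blue. *Mcpt1* and *Mcpt2* are highest in ceAF-4, where *Cma1* has 0 counts and *Hoxb13* is at 4.83 FPKM.

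*Mcpt4* (ENSMUSG00000061068, chromosome 14, 56297086 to 56299770, minus strand), a chymase of connective tissue mast cells, had 6, 2, 1, 6 and 0 counts in the DSS mice and 1, 7, 1, 12 and 1 counts in the ceAF mice. Its highest level was in ceAF-4, as for *Mcpt1* and *Mcpt2*, and the groups overlapped. Mean levels were 0.162 ± 0.157 FPKM (SD, n = 5) and 0.248 ± 0.282 FPKM, and the difference of mean log2 CPM was 0.36 (exact permutation p = 0.643). *Cpa3* (ENSMUSG00000001865, chromosome 3, 20269784 to 20296345, minus strand) encodes the carboxypeptidase of the granules and ranged from 1 to 12 counts per mouse, with 28 counts over the DSS mice and 23 over the ceAF mice. Its mean was 0.216 ± 0.176 FPKM and 0.176 ± 0.169 FPKM (difference of mean log2 CPM −0.29, exact permutation p = 0.706). The tryptase gene *Tpsb2* (ENSMUSG00000033825, chromosome 17, 25585279 to 25588072, plus strand) ranged from 0 to 8 counts, with 15 and 13 in the groups (difference 0.03, exact permutation p = 0.96). No difference was detected for these 3 genes.

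*Fcer1a* (ENSMUSG00000005339, chromosome 1, 173048851 to 173054781, minus strand) encodes the chain of the receptor that binds IgE. It had 4, 2, 2, 5 and 0 counts in the DSS mice and 0, 5, 1, 4 and 1 counts in the ceAF mice. *Ms4a2* (ENSMUSG00000024680, chromosome 19, 11592887 to 11601083, minus strand) encodes the beta chain, which amplifies the signal, and had 5, 4, 5, 8 and 0 counts in the DSS mice and 0, 3, 2, 4 and 1 counts in the ceAF mice. Both chains were at 0 in DSS-5 and ceAF-1, and the groups overlapped for both. *Fcer1a* averaged 0.154 ± 0.122 FPKM (SD, n = 5) and 0.136 ± 0.140 FPKM (difference of mean log2 CPM −0.21, exact permutation p = 0.754). *Ms4a2* averaged 0.0920 ± 0.0626 FPKM and 0.0440 ± 0.0365 FPKM (difference −0.73, exact permutation p = 0.31). Without DSS-5, a mouse singled out after the values were seen, the difference for *Ms4a2* was −1.25 (exact permutation p = 0.0397). Without ceAF-1, also at 0, it was −0.39 (exact permutation p = 0.595). Leaving out any mouse but DSS-5 gave an exact permutation p of 0.222 to 0.595. With 22 counts over the DSS mice and 10 over the ceAF mice, counting error was large.

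In order of their mean FPKM over the 10 mice, the genes were *Mcpt1* at 3.78, *Mcpt2* at 2.12, *Cma1* at 1.27, *Mcpt4* at 0.205, *Cpa3* at 0.196, *Fcer1a* at 0.145, *Tpsb2* at 0.105 and *Ms4a2* at 0.0680. The order differed by group, since *Cma1* at 2.02 was above *Mcpt2* at 1.97 after ceAF, and *Cpa3* at 0.216 was above *Mcpt4* at 0.162 with DSS alone. *Mcpt1* exceeded *Mcpt2* in 9 of 10 mice, by 1.66 ± 1.63 FPKM (SD). *Mcpt2* exceeded *Cma1* in 7 of 10 mice, and the mean difference of 0.852 FPKM was smaller than its SD of 2.29. *Cma1* was higher than *Mcpt4* in 8 mice and lower in 1, and the mean difference of 1.065 FPKM was again smaller than its SD of 1.56. From *Mcpt4* down, each gene differed from the next by less than the SD of the difference, and *Mcpt4* was higher than *Cpa3* in 5 mice and lower in 5. The ratio of *Mcpt1* and *Mcpt2* to *Mcpt4*, *Cma1*, *Cpa3* and *Tpsb2*, as log2 of summed FPKM, was 2.53, 2.64, 2.78, 2.46 and 2.45 in the DSS mice and 2.38, −0.29, 0.22, 3.57 and 0.59 in the ceAF mice. The DSS mice were close to one another and the ceAF mice were spread to both sides of them, with means of 2.57 ± 0.14 (SD, n = 5) and 1.30 ± 1.62. Without *Cma1*, an alternative chosen after the values were seen, the means were 3.81 ± 0.71 and 3.63 ± 0.91.

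The 4 chymase genes lie in the same cluster on chromosome 14, which also holds granzyme genes, and related sequences can share reads. Between the longest coding transcripts of the GENCODE M21 annotation, *Mcpt1* was 71.2% identical to *Mcpt2*, 75.3% to *Mcpt4* and 55.3% to *Cma1*. No stretch of 50 bases of *Mcpt1*, *Mcpt2* or *Cma1* occurred in another gene of the cluster. In *Mcpt4*, 58 of 1059 such stretches (5.48%) occurred in *Cma2* and 7 in *Mcpt9*, and the effect of this on its counts was not tested. *Cma2* itself had 18 counts over the 10 mice and *Mcpt9* had 31. In the deposited positions, *Cpa3* overlapped the microRNA gene *Mir7007*, and the other 7 genes overlapped no gene. Of the 15 genes of the cluster, 3 were tested, and 0 had an unadjusted p under 0.05, against 6.93% of all tested genes. *Gzmb*, the granzyme of killer lymphocytes, was the most abundant of them at 20.5 FPKM, with 27.6 ± 14.1 FPKM (SD, n = 5) with DSS alone and 13.3 ± 9.76 FPKM after ceAF (edgeR, log2 fold change −1.01, adjusted p = 0.745). Of 7 genes at the tryptase cluster, 2 were tested and 0 had an unadjusted p under 0.05, beside the same 6.93%. These were *Tpsg1* at 11.3 FPKM (log2 fold change −0.15, edgeR adjusted p = 0.936) and *Prss27* (log2 fold change −0.25, edgeR adjusted p = 0.938).

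Promoters were looked at after *Mcpt1* and *Mcpt4* were seen to share their highest mouse, with *Cma1* at 0 there. The part of promoters in these levels was not tested. GATA factors are known to act in mast cells, and the words AGATAA or AGATAG, and also TGATAA or TGATAG, were searched on both strands in the 250 bases before the start of each gene in RefSeq (GRCm38.p6). The table held 6 of the 8 genes, with no entry for *Mcpt2* and *Tpsb2*. All 6 had at least 1 such match, against 26.5% of all 32851 promoters in the table, and no word contains another. The E-box words CACGTG or else CATGTG were found in 1 of the 6, *Fcer1a*, against 17.6% of all promoters. The 250 bases of *Mcpt1* and *Mcpt4* were 81.5% identical, whereas *Cma1* was 50.9% identical to *Mcpt1* and 49.5% to *Mcpt4*. A match describes the letters only, and binding was not measured. The coordinates below differ from the deposited positions given above, whose build is not given, and cannot be compared with them. The 150 bases before the start follow for 4 genes, 5′ to 3′ along each gene's strand, with the GATA letters or their reverse complement in capitals.
Mcpt1, chr14:56017814-56017963, plus strand: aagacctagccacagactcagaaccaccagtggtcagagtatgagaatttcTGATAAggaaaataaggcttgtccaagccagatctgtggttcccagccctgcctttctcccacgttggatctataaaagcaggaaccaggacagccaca
Mcpt4, chr14:56062311-56062460, minus strand: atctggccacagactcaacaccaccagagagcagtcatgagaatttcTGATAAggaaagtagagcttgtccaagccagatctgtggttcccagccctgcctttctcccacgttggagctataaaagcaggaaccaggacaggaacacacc
Cma1, chr14:55944676-55944825, minus strand: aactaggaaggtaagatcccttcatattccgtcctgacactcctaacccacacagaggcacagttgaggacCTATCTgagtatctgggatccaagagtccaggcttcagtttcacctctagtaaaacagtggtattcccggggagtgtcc
Cpa3, chr3:20242182-20242331, minus strand: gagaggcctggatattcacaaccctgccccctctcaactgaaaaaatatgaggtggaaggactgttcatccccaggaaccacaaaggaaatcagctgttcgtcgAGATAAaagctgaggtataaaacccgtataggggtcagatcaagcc

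Below the receptor, the third chain and the signaling proteins are shared with other blood cells. All 31 genes of IgE receptor signaling were tested, of which 23 had a lower and 8 a higher estimate in the ceAF group. Their median log2 fold change was −0.20, against 0.01 over all tested genes. At an unadjusted p under 0.05, 8 of 31 were lower and 0 were higher, beside 3.67% and 3.26% of all tested genes. After adjustment 0 of 31 passed in edgeR's quasi-likelihood test, the smallest adjusted p being 0.656. In DESeq2, *Lat* had an unadjusted p of 5.3e-07, low enough to pass adjustment over the 21706 genes with an adjusted p. Among the 8 were *Fcer1g*, *Lat*, *Lcp2*, *Rac2*, *Fyn*, *Pik3cd* and *Orai1*, the last 3 of which fell short of a log2 fold change of 1 and were named after their values were seen. The receptor's own kinases had log2 fold changes of −0.11 for *Lyn* and 0.20 for *Syk* (edgeR, adjusted p = 0.959 and 0.926), also named after their values were seen.

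*Fcer1g* encodes the gamma chain, which pairs with Fcer1a and with other Fc receptors of macrophages and neutrophils. It had 61.1, 16.4, 24.0, 21.2 and 10.9 FPKM in the DSS mice and 8.50, 13.0, 12.3, 7.27 and 9.23 FPKM in the ceAF mice. DSS-1 stood far above the rest, and DSS-5 lay below ceAF-2 and ceAF-3. The log2 fold change was −1.37 (standard error 0.41; edgeR, adjusted p = 0.656; exact permutation p = 0.0238), and −0.83 without DSS-1. *Rac2*, a GTPase of blood cells, had a log2 fold change of −1.41 with a standard error of 0.38 (edgeR, adjusted p = 0.656), and −0.98 without DSS-1. The adaptor *Lat* had a log2 fold change of −1.56 (standard error 0.30) and the adaptor *Lcp2* −1.005 (standard error 0.34), each with an adjusted p of 0.656 in edgeR, and −1.47 and −0.66 without DSS-1. With DESeq2 their log2 fold changes were −1.57 and −1.01, with unadjusted p-values of 5.3e-07 and 0.00346. The most abundant genes of the list, *Mapk3*, *Prkcd* and *Grb2*, had log2 fold changes of −0.12, 0.07 and −0.16.

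**Figure D3:**
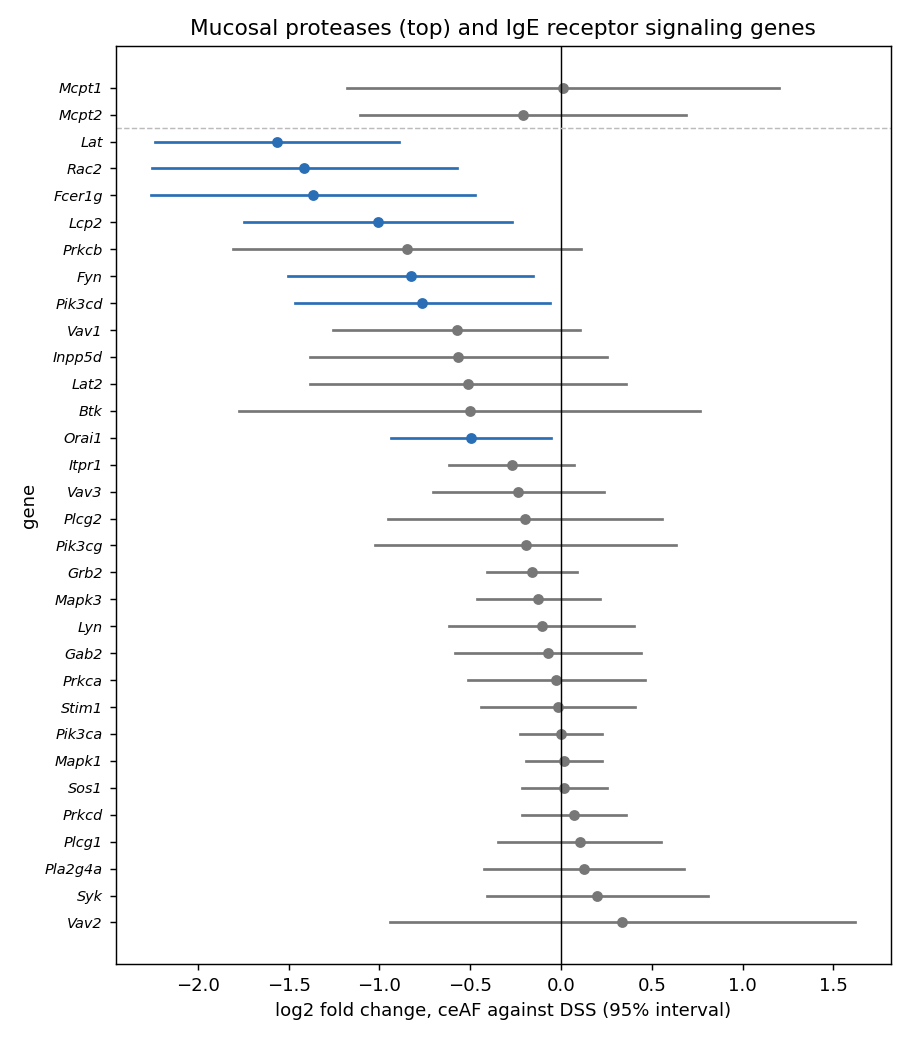
Log2 fold change, ceAF against DSS, with its 95% interval for *Mcpt1* and *Mcpt2* (above the dashed line) and 30 of the 31 genes of IgE receptor signaling, 5 mice per group. Blue marks an unadjusted p under 0.05 in edgeR's quasi-likelihood test, which 7 of the 30 genes had, all to the left of 0 and none after adjustment.

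*Lat* and *Lcp2* are also genes of T cells, and markers of other cells had lower estimates beside this list. However, 0 of the T cell, neutrophil and macrophage markers passed adjustment in edgeR. Of 8 T cell markers, 7 were lower at an unadjusted p under 0.05, against 3.67% of all tested genes, with a median log2 fold change of −1.23. Their summed level was 72.7, 66.9, 70.8, 71.0 and 26.9 FPKM in the DSS mice and 22.8, 38.7, 28.7, 14.9 and 20.3 FPKM in ceAF-1 to ceAF-5, the most abundant being *Trbc2*, and 0 of 8 were at 0. Of 7 neutrophil markers, 5 were lower at an unadjusted p under 0.05, against the same 3.67%, with a median log2 fold change of −3.94. This median is the value of *Cxcr2*, which was −1.07 without DSS-1 (edgeR, unadjusted p = 0.201). Their sum was 2760, 135, 414, 207 and 620 FPKM in the DSS mice and 19.8, 262, 188, 160 and 246 FPKM in the ceAF mice, led by *Ly6g*, with 0 of 7 at 0. *Ly6g* made up most of this sum in every mouse but DSS-1 and DSS-3, was highest in DSS-5 and had a log2 fold change of −0.67 (edgeR, adjusted p = 0.863). The other 6 markers, set apart after the values were seen, were each highest in DSS-1, the mouse with the highest *Fcer1g*, and summed to 2508, 17.5, 274, 20.6 and 101 FPKM in the DSS mice and 1.39, 13.8, 10.6, 58.2 and 26.7 FPKM in the ceAF mice. Of 6 macrophage markers, 2 were lower at an unadjusted p under 0.05, again against 3.67%, with sums of 118.9, 87.0, 93.8, 94.6 and 61.4 FPKM in the DSS mice and 24.5, 72.5, 80.2, 56.9 and 76.4 FPKM in the ceAF mice, led by *C1qa*, with 0 of 6 at 0. The part of these cells in the signaling list was not tested. Without DSS-1, 6 of the 31 signaling genes were lower at an unadjusted p under 0.05, against 1.92% of the genes tested in that fit (edgeR).

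Of 23 other mast cell genes, 15 were tested, 11 with a lower and 4 with a higher estimate and a median log2 fold change of −0.16. At an unadjusted p under 0.05, 3 of the 15 were lower and 0 higher, against 3.67% and 3.26% of all tested genes, and 0 passed adjustment in edgeR. *Hdc*, the enzyme that makes histamine, had 24.4, 0.39, 2.11, 0.28 and 0.16 FPKM in the DSS mice and 0.10, 0.58, 0.34, 0.37 and 0.09 FPKM in the ceAF mice. A single mouse, DSS-1, carried the difference (log2 fold change −4.14, standard error 1.37, edgeR adjusted p = 0.656), and without it the log2 fold change was −1.27 with an unadjusted p of 0.131. *Srgn*, the core protein of granule proteoglycan, had 153.8 FPKM in DSS-1 and 11.2 to 26.8 FPKM in the other DSS mice (log2 fold change −1.86, edgeR adjusted p = 0.656), and without DSS-1 its log2 fold change was −0.60 with an unadjusted p of 0.0762. Both genes are also known from neutrophils. *Adora3*, an adenosine receptor of mast cells and eosinophils, had 0.45, 0.18, 0.18, 0.18 and 0.21 FPKM in the DSS mice and 0.15, 0.10, 0.09, 0.07 and 0.08 FPKM in the ceAF mice. These groups did not overlap (log2 fold change −1.27, standard error 0.38, edgeR adjusted p = 0.656). Of all tested genes, 1.24% had groups that did not overlap in CPM scaled by TMM. *Adora3* had 28, 13, 11, 11 and 13 counts in the DSS mice and 8, 6, 6, 4 and 5 in the ceAF mice. At a minimum count of 10 it passed the filter only through the DSS group, which favours a lower estimate after ceAF. The lack of overlap is therefore no separate support for a lower level. *Kit*, the receptor of stem cell factor, which the pacemaker cells of the gut also carry, had 4.48 ± 0.788 FPKM (SD, n = 5) and 3.78 ± 0.407 FPKM (log2 fold change −0.22, edgeR adjusted p = 0.786), and was named after its values were seen.

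Of 20 genes for mast cell growth and recruitment, 14 were tested, 13 with a lower and 1 with a higher estimate and a median log2 fold change of −0.27. At an unadjusted p under 0.05, 3 of the 14 were lower and 0 higher, beside the same 3.67% and 3.26%, and 0 passed adjustment in edgeR. *Itgb7*, an integrin chain that brings mast cell progenitors and lymphocytes to the gut, had a log2 fold change of −1.04 with a standard error of 0.33 (edgeR, adjusted p = 0.656). The alarmin *Il33* had a log2 fold change of −1.27 with a standard error of 0.56 (edgeR, adjusted p = 0.714), and −0.63 without DSS-1. The chemokine receptor *Cxcr2*, also a neutrophil marker, had a log2 fold change of −3.94 (edgeR, adjusted p = 0.656), and −1.07 without DSS-1. Without that mouse the unadjusted p in edgeR was 0.2 for *Il33* and 0.201 for *Cxcr2*. Of the 3 genes only *Itgb7*, at 0.0233, then stayed under 0.05. *Kitl*, the stem cell factor that sustains mast cells, was the most abundant at 20.6 FPKM and had a log2 fold change of −0.07 with a 95% interval from −0.31 to 0.17 (edgeR, adjusted p = 0.936). The cytokines *Il3* and *Il13* were at 0 in all 10 mice.

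Basophils and eosinophils share part of this machinery. Of 6 basophil markers, 3 were tested and 0 had an unadjusted p under 0.05, against 6.93% of all tested genes, and the defining proteases were at or near 0, with 0 counts of *Prss34* and 3 of *Mcpt8* in all mice. Of 9 eosinophil markers, 2 were tested and 0 had an unadjusted p under 0.05, beside the same 6.93%, with *Il5ra* the most abundant at 1.27 FPKM and *Ear1* and *Ear6* at 0. The other lists describe the tissue around the mast cells. At an unadjusted p under 0.05 they gave 0 of 6 B and plasma cell markers (median log2 fold change −0.49), 0 of 6 fibroblast markers (−0.29), 0 of 7 smooth muscle markers (−0.12) and 0 of 9 colon epithelium markers (−0.01), beside the 6.93% of all tested genes. *Car1*, a colon epithelium marker, ranged from 93.3 FPKM in DSS-5 to 8530 FPKM in ceAF-1.

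Genes whose log2 CPM was most like that of a mast cell gene were sought among 16543 other tested genes over 10 mice. For *Mcpt1* these were *Fhl2* (r = 0.932), *Ncmap* (r = 0.927) and *Col6a4* (r = 0.916), each lowest in ceAF-1 and highest in ceAF-4. For *Mcpt4* they were *Crybb3* (r = 0.884), *Foxp4* (r = 0.884) and *Proc* (r = 0.877), and for *Cpa3* they included *Sema7a* (r = 0.902) and ENSMUSG00000121042 (r = 0.898). The genes most like *Cma1*, chosen after its values were seen, were *Zfp287* (r = 0.961), *Abca13* (r = 0.954) and *Ephb6* (r = 0.946), each lowest in ceAF-4. *Ephb6* had 0.83, 1.93, 2.44, 1.26 and 0.76 FPKM in the DSS mice and 0.40, 4.49, 3.58, 0.10 and 4.12 FPKM in the ceAF mice, so that ceAF-2, ceAF-3 and ceAF-5 were above, and ceAF-1 and ceAF-4 below, every DSS mouse, as for *Cma1*. These are the highest of many coefficients, over mice of 2 groups, and are given as a description.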

How the data were processed

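RNA of 10 colon samples was analysed, in groups taken from the sample labels. The authors deposited 1 table with whole-number counts of reads per gene, the FPKM of each gene, and other columns such as exonic length, used here to compare levels between genes. The deposited FPKM values equal the count scaled by length and library total for 100% of values, within 0.005. The submitters' processing notes name cutadapt 1.9.1 and HISAT2 2.2.1, and the counting program and genome build are not given in the sources used here. Counts were tested with edgeR 4.0.16 in R 4.3.3: genes kept by filterByExpr (minimum count 10), TMM scaling, the two-sided quasi-likelihood test and Benjamini-Hochberg adjustment over the 16545 genes kept. Exact permutation tests compared mean log2 CPM (prior count 1) over all assignments of 5 of 10 mice, with a smallest possible p of 0.00794. Correlation p-values came from 100000 random pairings. Alternatives were upper quartile scaling, DESeq2 1.42.0, other filters, limma-trend (limma 3.58.1) on log2(FPKM + 1) and log2(FPKM + 0.1), the replicate number as a block, and leaving out each mouse. The edgeR, DESeq2 and limma steps were tested on simulated data. By a chi-square check of the 20 pairs within groups, no library was a copy of another in its group, and pairs between groups were not checked. Members and lists were chosen with earlier results of these data known. Named genes were the 8, from every other list those that had an unadjusted p under 0.05 and a log2 fold change past 1 or −1, or else among the 3 most abundant, and the 3 genes most like *Mcpt1*, *Mcpt4* and *Cpa3*. Not every gene under this rule is named, and some of their values are not reported here. Transcripts and promoters were compared with Biopython, and figures were drawn with matplotlib.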

Additional observations from a re-analysis of the deposited data

Results flagged for a closer look

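For the 8 genes in CPM and for the total count, the distance of the most extreme of the 5 mice from the next one was taken as a share of the group's range. Of 18 such comparisons, 3 exceeded Dixon's limit. Chance gives about 1 in 20 for independent, normally distributed values, and whether CPM of rare genes meet this was not tested. *Mcpt1* and *Mcpt2* in ceAF-4, the highest of the ceAF mice, had ratios of 0.787 and 0.873. They share this mouse and varied together within the ceAF mice (r = 0.972 on log2 CPM), so they are not separate events. The total count of DSS-2, the highest of the DSS mice at 19901549, had a ratio of 0.908. *Cma1* did not pass the limit, although it was at 0 in ceAF-4.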

How the results depend on the processing

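Of 420 values recomputed under 19 alternatives, 360 kept their direction and their side of the threshold, or, for counts and untested values, moved by less than 1.5 times or 1 SD, and the cause of the other changes was not tested. The number of called genes was 0, 25 with DESeq2, and 0 to 3 when a mouse was left out (3 without DSS-5). The number at an unadjusted p under 0.05 was 1146, 1733 without a filter, and 712 to 1872 when a mouse was left out (712 without DSS-1, 1872 without ceAF-1). Of the 8 genes, 1 passed an unadjusted p of 0.05 with DESeq2 and 1 without a filter, *Cma1* in both, and in edgeR fits with a mouse left out 0 to 2 of those that passed the filter did so: *Cma1* without ceAF-1 and *Cma1* and *Mcpt2* without ceAF-4. In those fits *Cma1* passed the filter mainly through ceAF-2, ceAF-3 and ceAF-5, where it was high. Below the filter, *Ms4a2* had an exact permutation p of 0.0397 without DSS-5. With any other mouse left out, its exact permutation p was 0.222 to 0.595. IgE signaling genes lower at that limit numbered 6 to 9, and higher 0 to 1 (1 without ceAF-1), when a mouse was left out. The replicate numbers did not pair the mice, since correlations of same-numbered deviations ran from −0.249 to 0.286 and 1 mouse correlated best with its own number. With the replicate block, 694 genes were at an unadjusted p under 0.05, 5 IgE signaling genes were lower, and *Mcpt1* had a log2 fold change of −0.21. No block was fitted to the 6 genes below the filter. *Mcpt1* had −0.16 and −0.24 with limma-trend on FPKM at pseudocounts of 1 and 0.1, and −0.71 to 0.23 when a mouse was left out, and *Mcpt2* had −0.82 to −0.049. *Cma1* had fitted log2 fold changes of 1.97 with DESeq2, 1.96 without a filter and 1.95 at a minimum count of 5 (unadjusted p of 0.051 in edgeR's quasi-likelihood test), whereas its difference of mean log2 CPM was 0.06 to 1.67 when a mouse was left out. *Tpsb2* had fitted log2 fold changes of −0.15 with DESeq2 and −0.13 without a filter, and differences of means of −0.0099 and −0.0042 for log2 FPKM at pseudocounts of 1 and 0.1 and −0.37 to 0.45 for log2 CPM when a mouse was left out. Leaving out a mouse gave differences of mean log2 CPM of −0.0646 to 0.68 for *Mcpt4*, −0.62 to 0.0353 for *Cpa3*, −0.60 to 0.13 for *Fcer1a* and −1.25 to −0.39 for *Ms4a2*. The log2 ratio of mucosal to connective tissue proteases averaged 2.31 in the DSS group with CPM, and without *Cma1* 3.81 and 3.63, and leaving out a mouse gave 2.52 to 2.60 and 0.73 to 1.69. Levels near 0.2 CPM are at the limit of the depth. Among the other named genes, 22 values of *Hdc*, *Srgn*, *Il33* and *Cxcr2* kept their direction and lost the unadjusted p under 0.05. Alternatives for these genes, the IgE signaling counts, the correlation and the ratio without *Cma1* were chosen after seeing the data. The correlation of *Mcpt1* and *Mcpt2* was 0.694 to 0.946 when a mouse was left out.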
